A study of Mus musculus with 4 samples.

Results

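CpG dinucleotides are scarce in most of the mouse genome and crowd together in CpG islands, most of which sit at gene starts and carry no methylation. The windows described here are the exception: stretches of 1 kb (1000 bp) that are dense in CpGs, lie away from the ends of protein-coding genes and are methylated. A window of the autosomes or X was taken when it held 40 or more CpG positions listed in any of 4 libraries and at least 10 reads in each. Its methylation level, the share of reads that were methylated, had to average 50% or more over the 4 libraries. It also had to lie over 1 kb from the outermost start and end that RefSeq gives each protein-coding gene; starts of shorter transcripts inside a gene were not used. These criteria left 1008 of the 2506151 windows with a listed CpG, and 1008 of 20523 CpG-dense windows with enough reads. Of the 1008 windows, 373 lay within protein-coding genes, in 332 genes, and 635 lay between genes. Reads here and below are counts at CpGs, summed over the window. A fragment that crosses several CpGs therefore counts several times, and the number of fragments is smaller or equal.

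The data are whole-genome bisulfite sequencing of mouse embryonic stem cells (mESC), with 2 Ogt iKO libraries and 2 control libraries. All 4 samples carried the Ogt fl/fl genotype and were grown on mitomycin C-treated fibroblast feeders. Culture lasted 6 days in both groups, with 4-OHT in the medium of the iKO cells and none for the control cells. Per the labels, sorting removed feeders from both groups, and a YFP+ gate was applied to the treated cells alone, so loss of Ogt, the drug and the gate cannot be told apart. The labels do not say that replicates came from separate cultures, so the spread between them may be technical. These tables hold no expression values, and the identity of the cells was not checked here. Over Ogt itself, read depth relative to chromosome X was 1.23 ± 0.0327 (SD, n = 2) for iKO and 1.24 ± 0.0630 (SD, n = 2) for control libraries, and the groups overlapped. Depth over the whole gene cannot show the loss of a small part of it, so the deletion was not checked here. Each library held 63985703 to 79563364 CpG reads on the autosomes and X, a mean of 3.36 to 4.05 reads per CpG it covered.

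As background, DNMT1 copies CpG methylation at replication, DNMT3A and DNMT3B add it, and TET enzymes oxidise 5-methylcytosine to 5-hydroxymethylcytosine and further products. Ogt encodes O-GlcNAc transferase, which binds TET proteins and attaches N-acetylglucosamine to nuclear and cytosolic proteins. Sodium bisulfite leaves both 5-methylcytosine and 5-hydroxymethylcytosine unconverted, so a methylated read here stands for either. CpG-dense sequence that stays methylated in embryonic stem cells includes gene bodies, one allele of imprinted loci and young transposable elements.

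A few of the windows cover or adjoin the start of another transcript, either of a non-coding gene or, in Mest, a start inside the gene. RefSeq promoters (GRCm38.p6, the assembly that mm10 names) of 10 genes touched a member window, and 9 of the 10 genes are non-coding. For 7 genes at least 200 of the 300 bases of the RefSeq promoter lay inside the window. The sequences shown are the 250 bases before the start of the 4 of these genes with 10 or more CG dinucleotides that were all listed in the libraries. They show the letters of CpG-dense sequence in these windows, except that the Mest stretch runs on past the end of its window at 30738000. They are written 5′ to 3′ on the gene's strand with each CG in capitals. Mest, an imprinted gene whose maternal allele is methylated, lies on chr6:30737800-30738049 (+) and has 14 CG. Gm2245 lies on chr15:6654304-6654553 (-) with 10 CG, Gm37416 on chr2:16027607-16027856 (-) with 13, and Gm43915 on chr6:120958594-120958843 (+) with 13.
Mest: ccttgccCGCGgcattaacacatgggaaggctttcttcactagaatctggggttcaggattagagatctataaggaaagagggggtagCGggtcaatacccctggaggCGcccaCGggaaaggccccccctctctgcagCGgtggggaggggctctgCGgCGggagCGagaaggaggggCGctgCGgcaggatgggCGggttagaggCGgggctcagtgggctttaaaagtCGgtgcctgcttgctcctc
Gm2245: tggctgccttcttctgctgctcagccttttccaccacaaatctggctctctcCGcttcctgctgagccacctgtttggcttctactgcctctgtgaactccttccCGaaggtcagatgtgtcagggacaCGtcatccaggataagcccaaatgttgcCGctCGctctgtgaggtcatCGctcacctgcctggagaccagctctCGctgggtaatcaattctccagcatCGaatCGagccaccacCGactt
Gm37416: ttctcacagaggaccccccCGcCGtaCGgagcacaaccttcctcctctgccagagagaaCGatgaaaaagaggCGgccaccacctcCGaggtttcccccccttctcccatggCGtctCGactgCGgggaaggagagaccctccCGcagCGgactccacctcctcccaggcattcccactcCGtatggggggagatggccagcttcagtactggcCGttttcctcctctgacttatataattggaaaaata
Gm43915: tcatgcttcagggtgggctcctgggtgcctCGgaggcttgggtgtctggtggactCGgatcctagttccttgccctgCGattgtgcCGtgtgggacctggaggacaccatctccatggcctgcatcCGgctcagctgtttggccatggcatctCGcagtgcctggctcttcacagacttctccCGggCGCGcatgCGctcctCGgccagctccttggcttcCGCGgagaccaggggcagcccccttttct
The median over 32619 RefSeq promoters was 6 CG in 250 bases, and 29.6% had at least as many as Mest. The letters TGCCGC or, on the other strand, GCGGCA were also searched, since ZFP57, a protein that protects imprinted methylation, binds methylated TGCCGC. They occurred 2 times before the Mest start and 1 time before the Gm2245 start, and in 8.73% of all RefSeq promoters. Of the 7 promoters, Mest stood at 58.5% and 43.5% in iKO replicates 1 and 2 and at 36.8% in each control, from 19 to 46 reads a library. The iKO libraries were thus above both controls at the Mest promoter, the opposite of the direction of most windows. Over its whole 1 kb window Mest read 66.2% and 58.0% in iKO cells and 62.8% and 44.7% in controls, and the groups overlapped. The Gm2245 promoter stood at 38.7% and 23.4% in iKO cells and 66.7% and 14.3% in controls, from 7 to 47 reads. Both the Mest and the Gm2245 stretch thus averaged below the 50% that their whole windows reached. The Gm43915 promoter stood at 72.4% and 88.9% against 82.1% and 83.3%, from 9 to 58 reads. The groups overlapped in Gm2245 and Gm43915. The Gm37416 promoter stood at 84.1% and 69.0% in iKO cells and 100% and 74.3% in controls, from 16 to 44 reads, with overlapping groups. The Gm39505 promoter, with 5 CG and 8 to 27 reads, stood at 75% and 74.1% against 83.3% and 94.4%. The Gm35279 promoter stood at 92% and 88.4% against 41.7% and 100%, from 11 to 43 reads, and overlapped. The Gm42031 promoter had no reads in either iKO library.

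Methylation of the CpG-dense windows was lower in iKO cells. Averaged over the 1008 windows, the iKO libraries read 75.03% and 72.7% and the control libraries 79.9% and 83.7%, replicate 1 first in each pair here and below. The iKO mean was 73.9% ± 1.63 (SD, n = 2). The control mean was 81.8% ± 2.67 (SD, n = 2), so iKO cells stood -7.95 points from controls with a pooled SD of 2.22. No iKO library reached a control library. Over all 1741176 tested windows the difference was -8.02 points (pooled SD 2.30). Of the 1008 windows 798 were lower in iKO cells, or 79.2%, beside 79.4% of all tested windows. No p is given for these means, since 2 libraries against 2 cannot give an exact permutation p below 0.333 and the windows were chosen with results of these libraries known. The contrast between groups was not among the criteria, but the level was, so the levels are a description.

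Fewer windows were highly methylated in iKO cells and more were in the middle range. At 80% or more stood 50.3% and 45.5% of the windows in iKO libraries, against 61.4% and 72.5% in controls. Below 50% stood 8.83% and 13.7% of windows in iKO cells and 3.37% and 1.98% in controls. Both shares separated the groups. Below 20% stood 1 window in iKO replicate 1, 5 in iKO replicate 2 and 0 in each control. The criteria asked for a mean of 50% over all 4 libraries, iKO included. A window that lost nearly all methylation in both iKO libraries could hardly meet them, so these counts do not show how rare such loss was. On each of the 20 chromosomes both iKO libraries were below both controls, by -5.68 points on chromosome 13 to -11.4 points on chromosome 8.

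**Figure D1:**
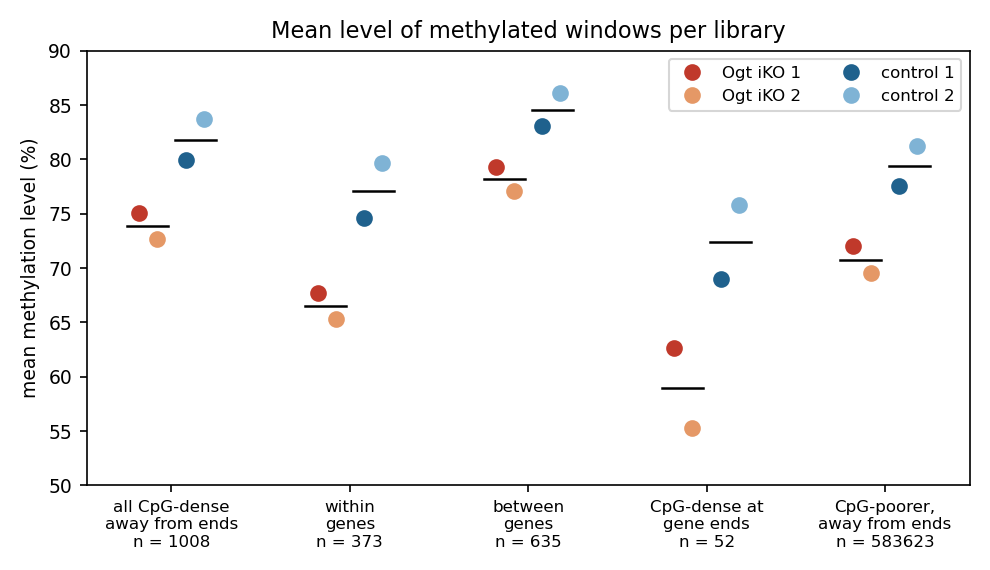
Mean methylation level (%) of each of the 4 libraries (points) and of each group (black bars) for the CpG-dense windows away from gene ends, those within and between genes, CpG-dense windows at gene ends, and CpG-poorer windows; the vertical axis runs from 50 to 90. Both iKO libraries lie below both controls in each set, and windows between genes stand highest, at 77.1% to 86.1%.

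Windows within genes had lower levels and a larger difference than windows between genes. Within genes the mean level was 67.7% and 65.3% in the iKO libraries against 74.6% and 79.6% in controls, which is -10.6 points (pooled SD 2.79). Between genes it was 79.3% and 77.1% against 83.1% and 86.1%, a difference of -6.37 points (pooled SD 1.90). Within each library the windows inside genes stood below those between genes, by -11.7 ± 0.0881 points (SD, n = 2) for iKO and by -7.46 ± 1.41 points (SD, n = 2) for control libraries. The gap between the 2 places thus differed by -4.27 points (pooled SD 1.00), and the groups did not overlap. The windows inside genes also had lower levels in controls, where 40.5% and 55.2% of them stood at 80% or more, against 73.7% and 82.7% of those between genes. When the 2 places were compared within level classes of 10 points, equally weighted, the gap was -0.505 points (pooled SD 0.548) and the groups overlapped. This value depends on the weights, and weights by number of windows were not run. In the class with the most windows, 80 to 90%, the gap was -2.08 points (pooled SD 0.187) and the groups were apart. That comparison was added after the data were seen.

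The difference was also described by the level of the window. Windows averaging 50 to 60% over the 4 libraries (n = 152) differed by -12.2 points, those of 60 to 70% (n = 126) by -13.7 points and those of 70 to 80% (n = 170) by -13.2 points. Those of 80 to 90% (n = 395) differed by -5.00 points, and those of 90 to 100% (n = 165) by -1.30 points (pooled SD 0.601). Above a level of 80% lay 560 of the 1008 windows, or 55.6%. The classes use the mean of all 4 libraries, iKO included, so a class near 100% limits the difference it can hold and a window with a large decrease moves to a lower class. The order of the classes is therefore partly fixed by how they were made and is given as a description. Windows between genes had a difference of -13.2 points at 70 to 80% and -4.48 points at 80 to 90%. Windows within genes had -13.2 and -6.55 points at the same levels. At 80 to 90% the windows within genes were 1.60 points below those between genes in iKO cells and 0.482 points above them in controls, a change of -2.08 points (pooled SD 0.187). In the other 4 level classes the change was between -1.80 and 1.85 points, and the groups overlapped in 3 of them.

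CpG-poorer windows, with 10 to 39 listed CpGs and otherwise chosen alike (n = 583623), changed more evenly with level. They differed by -8.63 points as a whole, and CpG-dense windows were 0.678 points (pooled SD 0.0918) less lowered. Matched for level this became -0.282 points with overlapping groups, so the small overall gap changed sign. Within level classes the gaps differed in sign. At 50 to 60% the gap changed by 0.0316 points (pooled SD 1.67) with overlapping groups, and at 60 to 70% by -2.60 points (pooled SD 1.46). At 70 to 80% the CpG-dense windows were 2.60 ± 0.497 points (SD, n = 2) below CpG-poorer ones under iKO and 1.71 ± 1.02 points (SD, n = 2) above them under control, a change of -4.31 points (pooled SD 0.800). At 80 to 90% the change was 1.27 points (pooled SD 0.243). At 90 to 100% they were 0.953 points above in iKO cells and stood at -0.693 points in controls, a change of 1.65 points (pooled SD 0.184). By number of CpGs, windows of 50 to 80% differed by -9.64 points with 10 to 19 CpGs, -11.1 points with 20 to 29, -12.1 points with 30 to 39 and -13.0 points with 40 or more, an order that the class of 50 to 60% does not share between CpG-dense and CpG-poorer windows. Windows of 90% or more differed by -3.10, -2.52, -2.57 and -1.30 points in the same order. Reads per CpG fell along this order too, from a median of 3.53 to 2.20 in the lower class. Levels in that class also fell, from 66.4% to 58.8% in iKO cells and from 76.0% to 71.8% in controls. The part of reads or of level in the result was not tested.

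**Figure D2:**
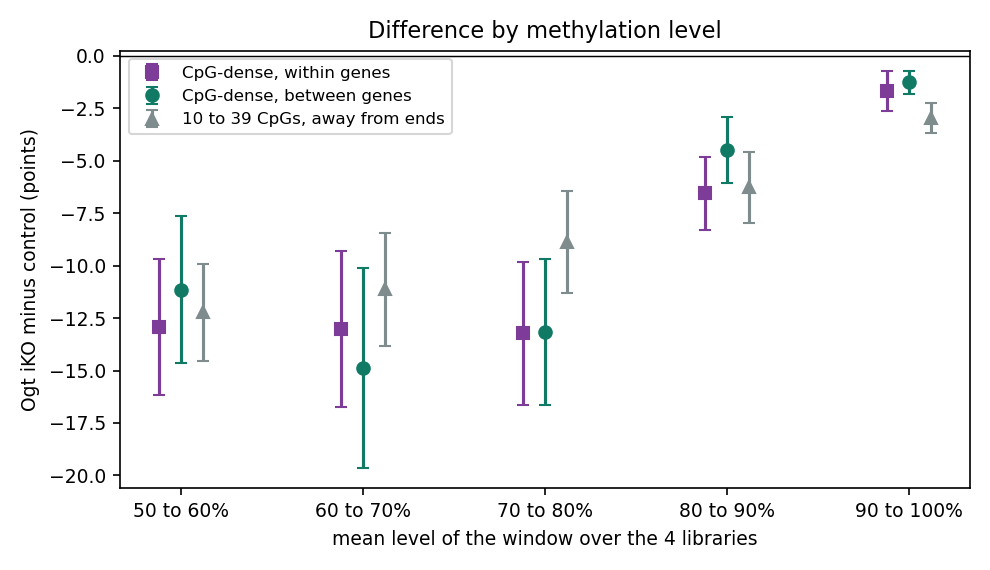
Mean iKO minus control difference (percentage points) by mean level of the window, for CpG-dense windows within and between genes and for CpG-poorer windows; bars are the pooled SD over 2 libraries a group. Below 80% the CpG-dense sets lie between -14.9 and -11.1 points, and at 90 to 100% they lie at -1.68 and -1.25 points.

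CpG-dense windows within 1 kb of a gene end that met the other criteria numbered 52. Their mean level was 62.7% and 55.3% in iKO cells and 69.0% and 75.8% in controls, a difference of -13.4 points (pooled SD 5.03), and 5 of them were called lower by the test described later, or 9.62%, beside 2.78% of the windows away from gene ends and 0.101% of all tested windows. Windows away from gene ends were thus 5.46 points less lowered, with a pooled SD of 2.97 and groups apart. The gap was 2.91 points without iKO replicate 2 and 1.86 points when 50 CpGs were required. At like levels the 2 kinds of window were closer. Gene-end windows differed by -15.9, -13.9, -13.8 and -6.49 points at mean levels of 50 to 60, 60 to 70, 70 to 80 and 80 to 90% (n = 23, 11, 9 and 8, pooled SD 2.64 to 5.82). Windows away from gene ends differed by -12.2, -13.7, -13.2 and -5.00 points at those levels. Among the 1008 windows the difference also shrank with distance from the nearest gene end, from -11.6 points at 1 to 5 kb (n = 135) to -5.57 points beyond 100 kb (n = 293). The mix of places changed too, with 107 windows within and 28 between genes at 1 to 5 kb, against 40 and 253 beyond 100 kb. Within genes the difference went from -12.4 to -7.84 points between these distances, and between genes from -8.34 to -5.21 points. Control levels moved with distance as well, from 75.4% to 84.6%, and the part of level or of place in this order was not tested.

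The surroundings of the windows differed by place. Between genes, levels were highest at and next to the windows and lower farther out on both sides. In iKO cells the mean was 78.2% in the windows, 79.2% at 1 kb downstream by coordinate, and 68.7% and 70.8% at 10 kb on either side. In controls it was 84.6% in the windows and 76.6% and 78.7% at 10 kb. Within genes the profile was flatter, with 66.5% in the windows and 65.5% and 64.2% at 10 kb in iKO cells. The CpG-dense window itself had the largest difference of its profile within genes, -10.6 points, while the 20 neighbouring positions had -6.91 to -8.84 points. The windows were chosen by level and their neighbours were not.

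**Figure D3:**
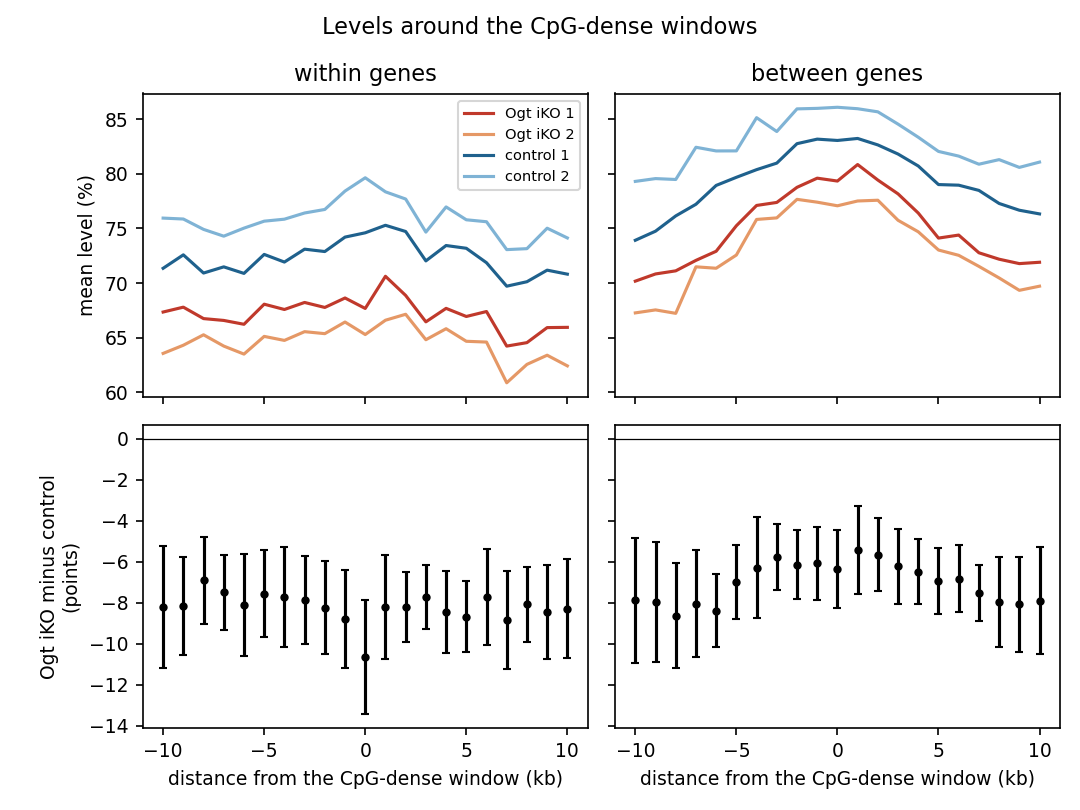
Mean level (%) per library (top) and iKO minus control difference in percentage points with the pooled SD (bottom) in 1 kb steps up to 10 kb from the CpG-dense window at 0, within genes (left) and between genes (right). Between genes the difference is -6.37 points at 0, -5.42 points at 1 kb and -7.89 points at -10 kb, and within genes it is largest at 0, -10.6 points.

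Each window was also set against its own neighbours at 1 and 2 kb, which could be read for 972 windows. Over all 972 the windows differed by -7.94 points and their neighbours by -6.63 points, a change of -1.31 points (pooled SD 0.283), and 52.4% of the windows had a larger decrease than their neighbours. The split by level that follows uses the window's own mean, which limits the difference of high windows and not that of their neighbours, and is a description. Where the window averaged 50 to 80% (n = 428), it differed by -13.1 points and its neighbours by -8.70 points. The window stood 8.58 ± 0.562 points (SD, n = 2) below its neighbours under iKO and 4.21 ± 1.38 points (SD, n = 2) below them in controls, a change of -4.37 points (pooled SD 1.05). Where it averaged 80% or more (n = 544) the values were -3.90 points in the window and -4.99 points in the neighbours, a change of 1.10 points (pooled SD 0.438). The groups did not overlap in either class.

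Within genes the windows lay mostly toward the 3′ end. RefSeq promoters gave a strand for 279 of the 373 windows. When each gene was cut into 5 equal parts, these held, from the 5′ end, 10.4%, 16.5%, 17.6%, 23.3% and 32.3% of the windows. CpG-poorer methylated windows inside genes were spread more evenly, with 16.3%, 19.7%, 20.7%, 22.1% and 21.2%. From the 5′ end, the difference was -10.3, -10.8, -9.44, -11.5 and -12.1 points in the 5 parts (pooled SD 2.22 to 4.00), without a steady order. Median levels over the 4 libraries were 73.7, 81.4, 75.6, 70.6 and 67.7% in the same parts. The part of level in these differences was not tested. Exons and repeats were not analysed here. Between genes, 90 windows touched a non-coding gene or pseudogene and differed by -9.09 points (pooled SD 2.65), and the 545 touching no annotated gene differed by -5.92 points (pooled SD 1.79).

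Each window was then tested on its own by quasi-binomial regression of methylated against total reads, with Benjamini-Hochberg adjustment over all 1741176 windows. Calls needed an adjusted p below 0.05 and a change of 10 points or more. In this model 28 of the 1008 windows fell in iKO cells, or 2.78%, beside 0.101% of all tested windows, and 0 rose, beside 0.000287%. At an unadjusted p under 0.05 in the same model, 334 windows were lower and 5 higher. The share of all tested windows at that cutoff was not counted, and 79.4% of them were lower in iKO cells. These counts therefore do not set the CpG-dense windows apart. Among CpG-poorer windows 0.165% were called lower, on a median of 45.5 reads a library against 95.75 in the CpG-dense windows. With 60 to 140 reads, 2.04% of 735 CpG-dense windows and 0.617% of 109459 CpG-poorer windows were called lower. These had medians of 2.14 and 3.81 reads per CpG, so like counts need not stand for like numbers of fragments. The extra spread of reads differed too, as given below. The part of either in the 2 shares was not tested. Within genes 19 windows were called, or 5.09%, and between genes 9, or 1.42%. All 28 averaged below 80%, as did 448 of the 1008 windows. Groups that did not overlap, with both iKO libraries lower, were found in 459 windows, or 45.5%, beside 40.5% of all tested windows, which is near the background. The share was 55.2% within genes and 39.8% between genes. With iKO higher they were found in 38 windows, or 3.77%, beside 4.21%.

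The calls are weak as single results. Leaving out iKO replicate 1, iKO replicate 2, control replicate 1 or control replicate 2 left 0 of the 28 called, as did limma on logit levels. Fitting and adjusting over the CpG-dense windows alone also left 0, with the same test and with edgeR, which was run only there. At an unadjusted p under 0.05, 157 to 268 windows were still lower in the fits without 1 library and 120 by limma. Over the CpG-dense windows alone it was 129 with the same test and 89 with edgeR. No share over all tested windows was counted beside these unadjusted numbers. When each window kept its own spread wherever that exceeded the moderated one, 8 of the 28 were called, or 0.794% of the 1008 beside 0.0225% of all tested windows. These 8 were the windows in Kif19a, Peg10, B4galnt4, Lrrc8d, Pdzd2 and Zfp84, and those between Tenm3 and Aga and between Slc16a14 and A530032D15Rik. The extra spread of reads, over binomial counting, was a median of 2.09 times in the CpG-dense windows and 1.11 times over all tested windows, which had fewer reads. With 60 to 140 reads it was 2.05 times in CpG-dense and 1.48 times in CpG-poorer windows. Replicates 30 or more points apart were found in 2.99% of windows of 60 to 140 reads in iKO cells and 1.90% in controls, against 0.957% and 0.791% of CpG-poorer windows. A window had a median of 2.11 reads per CpG in a library.

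**Figure D4:**
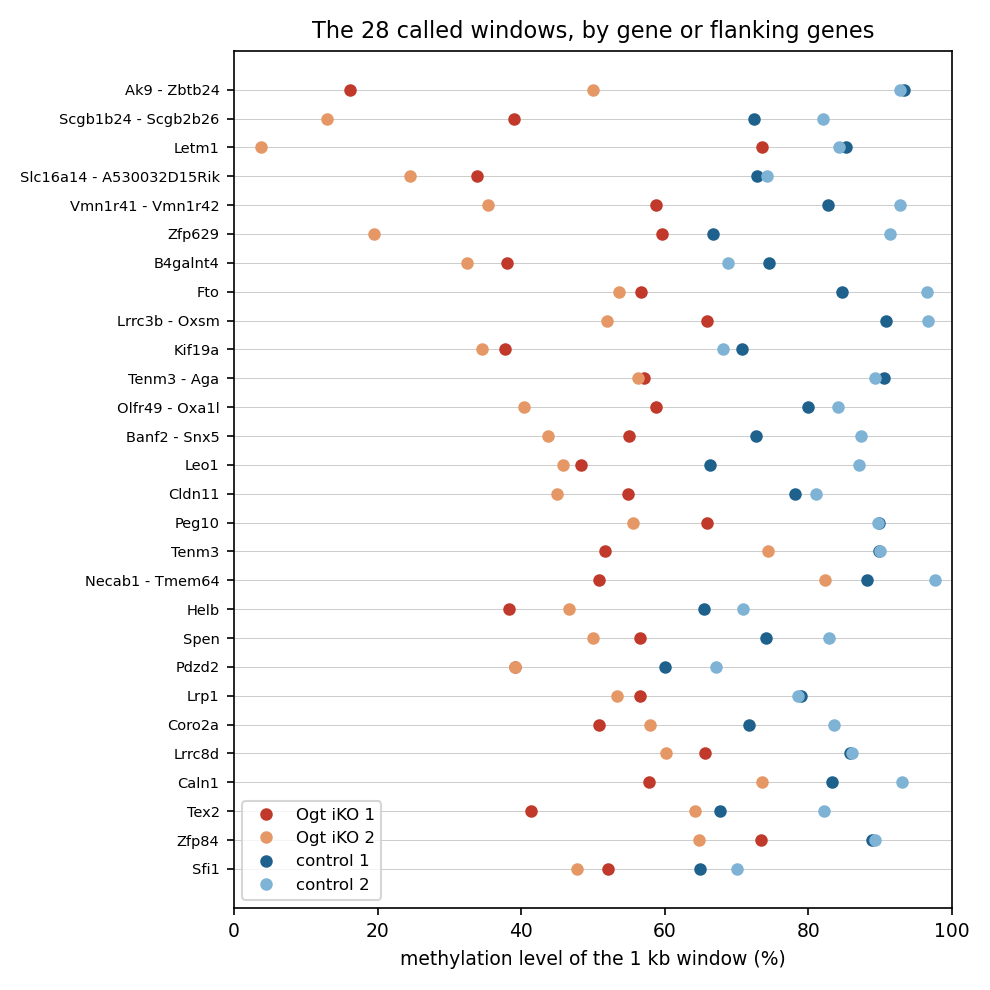
Methylation level (%) of the 28 called windows in each of the 4 libraries, ordered by the size of the difference and named by the gene that holds the window or the 2 genes beside it. Both iKO points lie left of both control points in all 28 rows; in Letm1 the iKO libraries stand at 73.5% and 3.74%.

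Within genes, the 8 windows with the largest calls and 40 reads or more in each library lay in Letm1, Zfp629, B4galnt4, Fto, Kif19a, Leo1, Cldn11 and Peg10. Kif19a encodes a kinesin that limits the length of cilia, and its window at chr11:114785001-114786000 has 40 listed CpGs. It stood at 37.8% and 34.5% in iKO libraries and at 70.8% and 68.2% in control libraries, from 96 to 127 reads. The difference was -33.4 points (quasi-binomial adjusted p = 0.0147, and 0.0235 with its own spread). The groups were apart in each of the 5 steps of 200 bp through the window, with 23.1% to 50% in iKO cells and 50% to 87.1% in controls, from as few as 3 reads a step. The replicates of each group were within 4 points of each other over the whole window.

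Peg10 is a paternally expressed imprinted gene derived from a retrotransposon and needed for the placenta. Its window at chr6:4755001-4756000 lies 4517 bp from the nearest gene end and has 45 listed CpGs. It stood at 65.9% and 55.6% in iKO cells and at 89.8% in each control, from 49 to 166 reads. The difference was -29.0 points (quasi-binomial adjusted p = 0.0151, and 0.0241 with its own spread). Most of it lay in the first 400 bp. The first step of 200 bp read 46.7% and 50.0% against 83.3% and 84.0%, and the second step read 14.3% and 31.8% against 88.0% in control replicate 2, while control replicate 1 had no reads there. In the next 2 steps the groups overlapped, and in the last they read 91.3% and 68.4% against 100% and 92.9%.

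B4galnt4 encodes an N-acetylgalactosaminyltransferase, and its window at chr7:141068001-141069000 stood at 38.0% and 32.4% in iKO cells and 74.5% and 68.9% in controls. The difference was -36.5 points (quasi-binomial adjusted p = 0.0276). Fto encodes a demethylase of RNA, and its window at chr8:91423001-91424000, 109634 bp from the nearest gene end, stood at 56.7% and 53.6% against 84.8% and 96.6%. The difference was -35.5 points (quasi-binomial adjusted p = 0.00999). Leo1, a subunit of the PAF1 complex of transcription elongation, read 48.3% and 45.8% against 66.3% and 87.1% at chr9:75445001-75446000. Cldn11, a tight-junction claudin, read 54.9% and 45% against 78.1% and 81.0% at chr3:31158001-31159000. In these 4 windows the iKO replicates lay within 10 points of each other and below both controls. The controls of Fto and Leo1 were farther apart than their iKO replicates. With its own spread, the quasi-binomial adjusted p was 0.0436 in B4galnt4, 0.132 in Fto, 0.357 in Leo1 and 0.0620 in Cldn11. Only the B4galnt4 window stayed called.

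In Letm1 and Zfp629 most of the difference came from iKO replicate 2. Letm1 encodes a protein of the inner mitochondrial membrane, and its window at chr5:33759001-33760000 read 73.5% in iKO replicate 1, 3.74% in iKO replicate 2, and 85.3% and 84.2% in controls. In iKO replicate 2, 24 of its 44 CpGs were read and 22 of the 24 had no methylated read. In iKO replicate 1 only 3 of 26 read CpGs had none. Zfp629, a zinc finger gene, read 59.6% and 19.5% in iKO cells and 66.7% and 91.4% in controls at chr7:127611001-127612000. The adjusted p rose from 0.0207 to 0.574 in Letm1 and from 0.0222 to 0.564 in Zfp629 when each kept its own spread. Over the 1008 windows, iKO replicate 2 lay 30 or more points below all 3 other libraries in 14 windows, iKO replicate 1 in 7, and each control in 1.

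**Figure D5:**
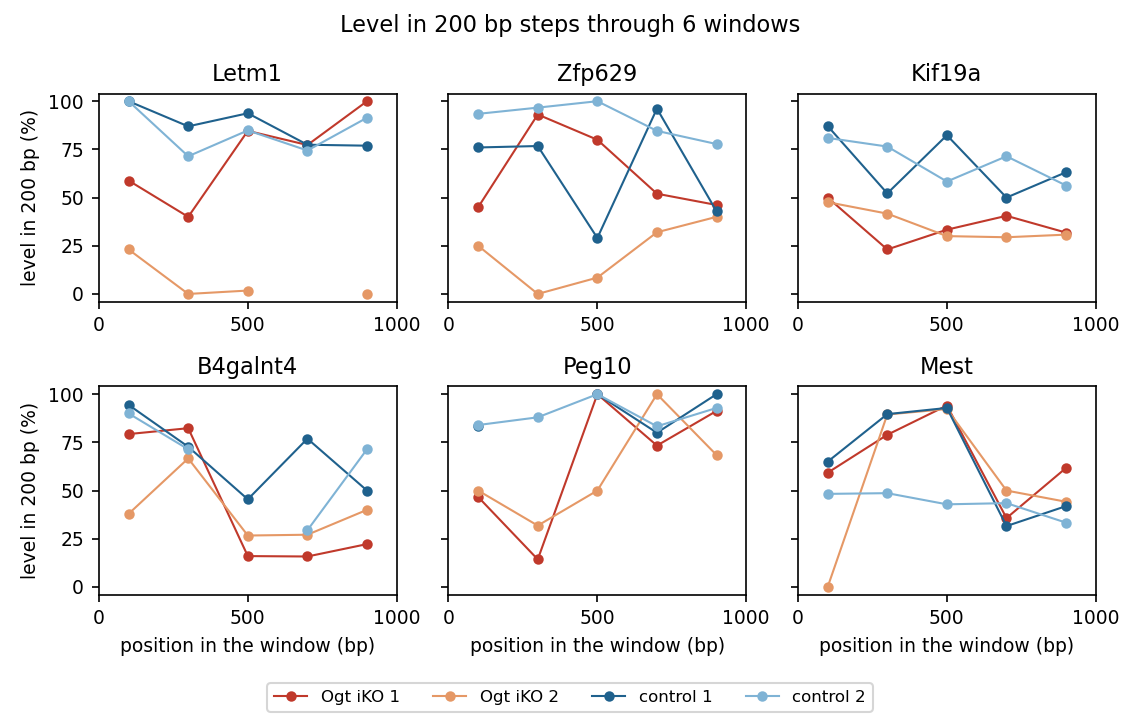
Methylation level (%) in 5 steps of 200 bp through the windows in Letm1, Zfp629, Kif19a, B4galnt4, Peg10 and Mest, for each library; a missing point had no reads. In Kif19a both iKO libraries lie below both controls in each step, in Letm1 iKO replicate 2 alone lies near 0 in 3 steps, with 23.1% in the first and no reads in the fourth, and in Mest the groups cross.

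Between genes, 5 called windows had 40 reads in each library and separate groups. The window at chr8:51735001-51736000 lies 1775683 bp from Aga, a lysosomal enzyme gene, and 2212177 bp from Tenm3, a teneurin gene of neuronal wiring. It stood at 57.1% and 56.3% in iKO cells and 90.6% and 89.3% in controls, a difference of -33.3 points (quasi-binomial adjusted p = 0.0146, and 0.0233 with its own spread). Replicates differed by less than 2 points in both groups. A second called window, chosen after its values were seen, lay inside Tenm3 itself and read 51.7% and 74.4% against 89.8% and 90%.

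The window between Lrrc3b and Oxsm, at chr14:16068001-16069000, read 65.9% and 52.0% against 90.8% and 96.7%. Its adjusted p was 0.00693 in the quasi-binomial model, and 0.0839 with its own spread. Oxsm encodes an enzyme of mitochondrial fatty acid synthesis, and its nearest end is 169652 bp away. The window between the vomeronasal receptor genes Vmn1r41 and Vmn1r42, at chr6:89762001-89763000, read 58.8% and 35.4% against 82.8% and 92.8%. Between Olfr49, an olfactory receptor gene, and Oxa1l, whose protein inserts others into the inner mitochondrial membrane, the window read 58.7% and 40.3% against 80% and 84.1%. Between Banf2 and Snx5, a sorting nexin gene, it read 55.0% and 43.8% against 72.8% and 87.3%. In these 4 windows iKO replicate 2 was the lowest library, and none of the 4 stayed called with its own spread.

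The window called with the most reads lay in Sfi1, a centrosomal gene, and was named after its values were seen. It held 4489 to 5889 reads a library, 85.8 reads per CpG, far above the median of 2.11. It read 52.0% and 47.8% in iKO cells and 65.0% and 70.1% in controls. Whether reads of other copies were placed there was not tested. The largest call, between Ak9 and Zbtb24, was also named after its values were seen. It rested on 14 to 31 reads a library, which are counts at CpGs and may come from fewer fragments. It read 16.1% and 50.0% against 93.3% and 92.9%.

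Gene groups were then counted. Of the imprinted list, 4 of 50 genes held a window, and 1 of the 4 windows was called, that in Peg10, beside 2.78% of the 1008 windows and 0.101% of all tested windows. Kcnk9, a maternally expressed potassium channel gene, read 77.3% and 72.1% against 82.9% and 84.5%. Trappc9, next to it in the same imprinted cluster, read 47.9% and 50.5% against 47.8% and 53.8% and had overlapping groups, as did Mest. The 3 imprinted windows other than Peg10 thus differed by -8.99, -1.63 and 8.36 points and did not pass the test. The median over the 4 windows was -5.31 points, beside -7.81 points over all tested windows.

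Genes of giant cadherins, which hold cells together and set planar polarity, held 9 windows, with 0 called, 9 of 9 lower and a median difference of -11.6 points. Of the 373 windows within genes 86.3% were lower, with a median of -9.83 points, and of all tested windows 79.4%, with a median of -7.81 points. Fat1, a giant cadherin that restrains growth, held 5 of them between 44951001 and 45026000 on chromosome 8. Over these 5 windows the mean level was 56.8% and 54.3% in iKO cells and 71.6% and 75.3% in controls, a difference of -17.9 points (pooled SD 2.25). In each of the 5 Fat1 windows the groups were apart, with differences of -20.0 to -11.6 points, and 0 of them passed the test. Groups were apart with iKO lower in 55.2% of windows within genes and 40.5% of all tested windows, and 5.09% and 0.101% were called lower. The first of them, at chr8:44951001-44952000, read 44.4% and 54.7% against 68.4% and 70.6% (quasi-binomial adjusted p = 0.0942). The 4 windows of Celsr1 and Celsr2 differed by -7.42 to -2.19 points and their groups overlapped.

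Plakins and other giant scaffold genes held 13 windows in 8 genes, with 0 called, 11 lower and a median of -10.9 points, a share near the 86.3% lower of all windows within genes. Plec, which encodes the cytoskeletal linker plectin, held 5 windows, at 57.1% and 62.1% in iKO cells and 69.4% and 74.1% in controls, a difference of -12.1 points (pooled SD 3.40). Groups were apart in 3 of these 5 windows, a share near the 55.2% of windows within genes that were apart with iKO lower (40.5% of all tested windows), and 0 were called, beside 5.09% within genes and 0.101% of all tested windows. Eppk1, a plakin gene of epithelia, read 63.6% and 64.5% against 75.7% and 90.9%. Ttn, which encodes titin, read 66.4% and 61.2% against 58.1% and 64.7% and overlapped.

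Zinc finger genes held 22 windows in 16 of 497 genes, and 2 were called, in Zfp629 and Zfp84. Of the 22 windows 20 were lower in iKO cells, 17 had separate groups, and the median difference was -12.9 points. Within genes as a whole 5.09% of windows were called, 86.3% were lower, 55.2% were apart with iKO lower and the median was -9.83 points. Over all tested windows 0.101% were called, 79.4% were lower and 40.5% were apart. Zfp84 read 73.4% and 64.8% against 89.0% and 89.2% (quasi-binomial adjusted p = 0.0206, and 0.0327 with its own spread). Zfhx3, a homeodomain and zinc finger factor, held 2 adjacent windows, at 55.0% and 48.9% against 76.4% and 80.6% in the first and 78.4% and 71.8% against 85.2% and 86.3% in the second. In both the groups were apart, with adjusted p = 0.0569 and 0.241 in the quasi-binomial model. Zfp978 was mixed, with differences of -20.2, -5.16 and 16.0 points in 3 windows, and the groups overlapped in the last 2. Many zinc finger genes have near-identical neighbours, so reads may be shared among copies.

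Smaller groups held 1 or 2 windows each and had no calls, beside 5.09% called lower within genes and 0.101% of all tested windows. So few windows without a call are near those shares. Prdm16, a histone methyltransferase gene, read 55.6% and 48.7% against 71.6% and 80.6% at chr4:154341001-154342000, a difference of -24.0 points (quasi-binomial adjusted p = 0.0739). Setd1b, the only other gene of that list with a window, differed by -2.69 points with overlapping groups. Notch2, a receptor, and Jag2, a ligand of the Notch pathway, differed by -16.9 and -9.05 points, and the groups were apart in Notch2 alone. The 2 windows in the protocadherin alpha cluster averaged over 90% and differed by -6.44 and -3.70 points. Another window, farther along the protocadherin genes and inside the long gene model Gm37013, was higher in iKO cells by 6.93 points, and over the 3 windows in Gm37013 the difference was -1.07 points with overlapping groups. Cacna1h, a calcium channel gene, differed by -9.83 points and Col8a1, a collagen gene, by -0.530 points, both with overlapping groups. The list of homeobox and paired box genes, from which Zfhx3 was left out since it was counted with the zinc finger genes, held 0 windows, as did the lists of genes of DNA methylation, TET and O-GlcNAc, and genes of heterochromatin and retroelement silencing.

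Most windows stood alone: 923 had no adjacent member, 39 runs had 2, and 1 run each had 3 and 4. Both longer runs lay in Flg, which encodes filaggrin of the skin barrier as a row of repeats and held 9 windows. The run of 3, at chr3:93281001-93284000, read 64.2% and 62.0% in iKO cells and 77.2% and 87.3% in controls. The run of 4, at chr3:93288001-93292000, read 70.4% and 71.6% against 70.4% and 86.9%, and the groups overlapped. Over all 9 Flg windows the difference was -10.1 points with a pooled SD of 5.87, and the controls were farther apart (71.0% and 82.7%) than the iKO libraries (66.7% and 66.8%). A pair on chromosome 1, at chr1:112599001-112601000, read 85.0% and 80.9% against 89.4% and 88.8%.

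The 5 windows with the most CpGs were highly or partly methylated and were not called. The window between Rnf223 and Agrn, the agrin gene, at chr4:156137001-156138000 has 103 listed CpGs and read 87.2% and 89.3% in iKO cells and 92.7% and 95.4% in controls. Mxi1, an antagonist of MYC, has 83 in its window at chr19:53349001-53350000 and read 46.6% and 49.5% against 62.9% and 63.2%, a difference of -15.0 points (quasi-binomial adjusted p = 0.121). Those between Dusp7 and Rpl29 and in Asmt, which encodes the last enzyme of melatonin synthesis, have 76 and 70 and overlapped between groups. Fam71e2, with 74, read 89.9% and 61.5% against 90.4% and 94.6%.

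A minority went the other way. Of 210 windows higher in iKO cells, 38 had separate groups, and 0 were called. The 38 are 3.77% of the 1008 windows, beside 4.21% of all tested windows, which is near the background. The share lower in iKO cells was likewise 79.2% beside 79.4%, and 0.000287% of all tested windows were called higher. This minority therefore does not set the CpG-dense windows apart. Gabrg3, which encodes a subunit of the GABA-A receptor and was named after its values were seen, held 3 windows. They averaged 92.4% and 92.8% in iKO cells and 86.0% and 90.9% in controls, a difference of 4.14 points (pooled SD 2.48), and each of the 3 was higher in the iKO mean. The largest increase with separate groups, also chosen by its value, was in Nudcd3 at 90.9% and 91.4% against 69.2% and 62.1%, from 13 to 44 reads (quasi-binomial adjusted p = 0.201).

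At the edge of the criteria, the 3 windows just above a mean level of 50% lay in Trappc9, between Jag1 and Btbd3, and in Trpc7, at 50.02%, 50.1% and 50.2%. Those just below lay in Kif26a, Adgrb2 and Plec, at 49.998%, 49.96% and 49.9%. The 163 windows of exactly 40 listed CpGs differed by -8.53 points and the 201 otherwise like windows of 39 by -7.05 points.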

How the data were processed

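Methylation was read in 4 whole-genome bisulfite libraries. Per the submitters' processing notes, BSMAP and Picard were used with build mm10. Per the file headers, the authors deposited for each CpG a methylated read count and a total read count, and an estimated count of total reads corrected for C/T variants, which served in an alternative. Files were matched to samples by the genotype and replicate number in their names. Counts were summed over the CpGs of each 1 kb window, so a fragment that covers several CpGs was counted at each. The quasi-binomial dispersion was moderated with limma 3.58.1 (squeezeVar, R 4.3.3) and kept at or above 1, and the F test was tried on simulated data. The simulated windows all had the same extra spread, below the median of 2.09 times in the CpG-dense windows. That trial therefore does not show how the test behaves in windows of wider spread. edgeR 4.0.16 served as an alternative over the CpG-dense windows, with Python 3.11.15, NumPy 2.4.6, pandas 2.3.3 and matplotlib 3.10.9 elsewhere. Alternatives changed the read minimum, the criteria, the depth, the test and the libraries. The windows and 12 gene lists were chosen with earlier results of these data known. Windows were named by rule: the 8 largest called decreases within and between genes (groups apart, 40 reads in each library), the 5 with the most CpGs, the 3 longest runs, the 3 windows on each side of the 50% level, the window of each gene list with the most CpGs, and genes with 5 or more windows. Other named windows of the gene lists, such as those in Eppk1, Ttn, Zfhx3, Zfp84, Zfp978, Notch2 and Kcnk9, fall outside these rules. They were named with their values known. Gene ends came from RefSeq GRCm38.p6. Intervals were not given, since reads of 1 fragment are not independent.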

Additional observations from a re-analysis of the deposited data

How the results depend on the processing

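The mean difference of the 1008 windows kept its sign and moved by less than the SD between replicates in all 19 alternatives counted for it. Some of these could not have come out otherwise. The replicate block leaves the mean as it is, and with 2 libraries a group, leaving 1 out cannot move it beyond that SD. It was -9.84 to -6.06 points with 1 library left out (median -7.96 to -4.72). The number of windows called higher was 0 in all 23 alternatives. Those that kept only part of the 1008 windows under the same fit could give no other number. Criteria that only change which windows are counted reused the same fit, so the 28 calls themselves could not change. Under them 140 of 7219 windows were called with 30 CpGs required, 8 of 219 with 50, and 9 of 730 with a mean level of 70% required. In that same fit 0.101% of all tested windows were called lower. The number called lower, 28, was unstable under other read minima and tests. It was 1 with 20 reads required in each library and 0 with 40 (293 and 201 lower at an unadjusted p under 0.05), and 14 with libraries thinned to the shallowest. It was 0 without each library in turn (157 to 268 lower unadjusted), where the remaining library of an arm borrows its spread from the other arm. It was 0 with limma on logit levels (120), with the fit over CpG-dense windows only (129) and with edgeR there (89), and 8 with each window's own spread (220), an alternative chosen after seeing the data. The fit with a replicate block called 1 window, in Sfi1 (318 lower unadjusted). The unadjusted counts have no share over all tested windows beside them. Nor do the calls of the refits, except that with each window's own spread 0.0225% of all tested windows were called lower. Whether the other refits lost calls in all windows alike was therefore not counted. The labels do not say whether the replicate numbers pair the samples. The replicate differences of the groups correlated at 0.0399 over the 1008 windows, which cannot settle it, since windows of few reads vary by sampling. The within minus between gap was -5.27 to -3.27 points with 1 library left out, -2.93 with 30 CpGs and -3.04 with window borders shifted. Matched for level with equally weighted classes it was -0.505 points. The gap to CpG-poorer windows was 0.596 to 0.760 points with 1 library left out, 1.07 with 40 reads, 0.0972 with 30 CpGs, 1.26 with 50, 1.64 at a level of 70% or more, 1.11 over 5 kb from gene ends, 0.812 with all RefSeq genes, and -0.282, with the sign reversed, matched for level. The gap to gene-end windows was 2.91 to 8.01 points with 1 library left out and 1.86 with 50 CpGs. Level matching was also chosen after seeing the data, and the cause of these shifts was not tested.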
